A study of Mus musculus with 16 samples.

Results

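Regulatory T cells restrain other immune cells and are marked by high CD25, the alpha chain of the interleukin-2 receptor. Their antigen receptor signals through the CD3 chains and the kinase Lck, and antibody to CD3 engages it without antigen. T cells stimulated in this way replace part of their transcriptome, with some RNAs lost while others accumulate. TSAd, the product of Sh2d2a, is an adaptor protein that interacts with Lck. The features described here are those whose RNA was lower in wild-type regulatory T cells after 24 h on anti-CD3 than in unstimulated cells, and the questions asked were whether their lower level was already present by 8 h and whether it was seen in cells without Sh2d2a.

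The cells were CD4+CD25high cells sorted from the spleen of C57BL/6 mice, either wild type (WT) or Sh2d2a knock-out (KO), with the controls matched for sex and age and no age stated. They were taken without stimulation (0 h) or after 2, 8 or 24 h on plates coated with the anti-CD3 clone 145-2C11 at 1 µg/ml, and polyadenylated RNA was sequenced in bulk. Genotype and time made 8 groups of 2 libraries, which gives 16 libraries. No library held cells cultured for the same time without antibody, so stimulation and time in culture cannot be told apart. Nothing in the labels says that the libraries of a group came from different mice. The p-values therefore reflect the spread among these libraries alone, and that spread may be technical.

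A feature entered the set when its mean normalised read count over the 16 libraries was at least 100, its mean in WT at 24 h was at most 0.67 times its mean in WT at 0 h, and both WT values of 24 h lay below both WT values of 0 h. Of 27802 features in the tables, 6741 reached the mean of 100, and 172 of these (2.55%) met the rule. The mirrored rule gave 303 raised features. The difference between WT at 24 h and WT at 0 h therefore chose the 172 features and is given below as a description, with no test. The same holds for every comparison that uses WT libraries of 0 h or 24 h. All 172 passed the filter on low values used for testing, a value of 10 or more in at least 2 libraries.

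The features have no usable gene names. Of 20 rows listed under genes chosen as markers of these cells, of other blood cells or of every cell, 9 had a mean value under 1, and those listed as Gapdh, Rplp0 and Ptprc were at 0 in every library. The listed rows of Foxp3 and Cd4, the lineage factor and the sorting marker of these cells, had means of 0.699 and 0.0792, so the labelled cell type could not be checked. The row listed as Sh2d2a held values of 0 to 4.22, WT included, and so did not check the genotype. Members are therefore called by their rank in mean level (level rank 1 is the most abundant of the 172) or by their rank in the ratio of WT at 24 h to WT at 0 h (ratio rank 1 is the smallest). A listed identifier is printed for 1 member of each kind, only to mark its row, and no pathway or sequence is read from it.

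The WT libraries held 2726097 to 10229138 reads, the KO libraries 2065662 to 5907998. The median member had 118 reads in the library where the set was shallowest and 605.5 where it was deepest. The 2 libraries of each group differed by more than counting error, with a chi-square of 4.97 to 16 times its degrees of freedom. One member split the libraries in another way than genotype and time do. It is the feature of ratio rank 1 and level rank 4, listed as ENSMUSG00000067369, which was either among the most abundant features or almost absent. Its values were 8347 and 8613 in WT at 0 h, 8577 and 6968 at 2 h, 6243 and 11 at 8 h, and 6.48 and 3.44 at 24 h. In KO replicate 1 had 11399, 13216, 12046 and 11864 at the 4 times, and replicate 2 had 25.3, 14.3, 15.7 and 17.7. Thus 9 libraries were high and 7 were low. In WT all libraries of 0 h were high and all of 24 h were low, so for the comparison that chose the members this split and time cannot be told apart. No other feature with a mean of at least 100 (0 of them) was at least 2-fold apart between the same 9 and 7 libraries.

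The split can be read apart from time in KO and in WT at 8 h. In KO, where replicates 1 and 2 differed in it at every time, replicate 2 minus replicate 1 was averaged over the 4 times. The members' median was 0.02 on the log2 scale, against 0.00 for all features with a mean of at least 100. Below 0 were 73 of 172 members (42.4%), against 51.4% of those features. In WT at 8 h replicate 1 was high and replicate 2 low. There the members' median of replicate 2 minus replicate 1 was 0.02, against 0.01. Whether the split had a part in the choice of members was not tested. All log2 values here are of the normalised count plus 2, which understates changes of low features.

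In WT the median member stood slightly lower at 2 h than at 0 h, lower again at 8 h and lowest at 24 h. The median normalised count over the 172 members was 310 and 303 in the libraries of 0 h and 293 and 292 at 2 h. It was 251 and 259 at 8 h, and 172 and 191 at 24 h. Each pair lay below the pair before it. In KO the same median was 268 and 265 at 0 h, 269 and 269 at 2 h, 258 and 268 at 8 h, and 264 and 266 at 24 h. The KO libraries thus spanned a range of 258 to 269, between the WT libraries of 2 h and those of 24 h. The median of all 6741 features with a mean of at least 100 was 287 to 302 in the 16 libraries. In bulk RNA, fewer cells that hold a transcript and less of it per cell cannot be told apart.

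**Figure D1:**
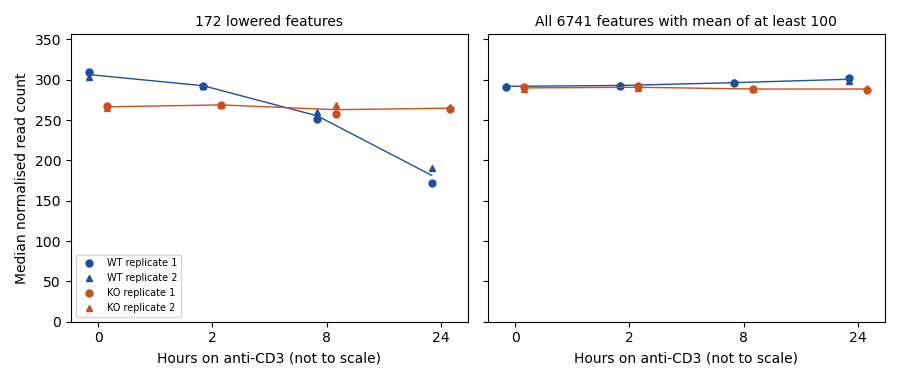
Median normalised read count of the 172 lowered features (left) and of all 6741 features with a mean of at least 100 (right), by hours on anti-CD3; points are single libraries and lines join the means of the 2 libraries. In WT the lowered features go from 310 and 303 at 0 h, which the rule chose, to 172 and 191 at 24 h, while the KO libraries stay between 258 and 269.

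Set against 0 h, the members' median log2 difference in WT was -0.10 after 2 h, -0.30 after 8 h and -0.68 after 24 h. The last of these is what the rule selected, and all 3 rest on the WT libraries of 0 h. For all features with a mean of at least 100 the medians were 0.00, -0.01 and 0.00. At 24 h the median ratio was 0.623, with the 25th and 75th percentile at 0.568 and 0.652. Most members thus lay close to the limit: the 3 ratios just inside it were 0.6689, 0.6686 and 0.6685, and the 3 just outside were 0.6704, 0.6710 and 0.6717. On the level limit, the lowest mean inside was 102 and the highest outside 99.6. The members' means ran from 102 to 8242 with a median of 260, against a median of 294 for all features with a mean of at least 100.

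By 8 h the median member had covered 41.8% of its 24 h difference from 0 h, and by 2 h 13.2%, with both ends of that scale set by the rule. At 8 h, 57 members had covered at least 50% of it, 85 between 25% and 50%, and 30 less than 25%. In 129 of 172 members both WT libraries of 8 h lay below both of 0 h, where 21.1% of the features with a mean of at least 100 did so. The 4 WT means stood in falling order from 0 to 24 h in 112 members (65.1%), and in 10.3% of the features with a mean of at least 100. In KO the same order was found in 11 members (6.40%) and in 4.42% of those features. The rule set the WT ends of this order for the members, but not for the other features or for KO. The WT shares of members, at 8 h against 0 h too, are therefore descriptions and not comparable with the other shares.

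The step from 2 h to 8 h in WT used no library of the rule's ratio, though the mean of at least 100 took in all 16 libraries. Here the members' median log2 difference was -0.21, with the 25th and 75th percentile at -0.28 and -0.11, against -0.01 for all features with a mean of at least 100. Below 0 were 153 of 172 members (89.0%), against 53.3% of those features. In 94 members (54.7%) both libraries of 8 h lay below both of 2 h, against 17.1%. No single member passed the test: limma called 0 of 172 lower at an adjusted p under 0.05, with a lowest adjusted p of 0.157, where 0.00807% of all tested features were called lower. At an unadjusted p under 0.05, 28 members were lower (16.3%), against 1.69% of all tested features. edgeR called 0 members lower, with 32 at an unadjusted p under 0.05, and DESeq2 called 3. Of all tested features, edgeR called 1 lower and DESeq2 6. The share of all features at an unadjusted p was not counted for edgeR. Of the 3 members called by DESeq2, those of level ranks 121 and 167 owed their 2 h mean to a single library. Read with 1 WT library of 8 h at a time, the median was -0.22 for replicate 1, high in the 2-level feature, and -0.18 for replicate 2, low in it. With a WT library of 2 h left out it was -0.17 (no replicate 1) and -0.25 (no replicate 2).

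The third feature that DESeq2 called at this step, of level rank 12, was singled out after its values were seen. It had 2451 and 2017 in WT at 0 h, 2331 and 2245 at 2 h, 1695 and 1712 at 8 h, and 1087 and 1360 at 24 h. The libraries of 8 h lay below those of 2 h and above those of 24 h, without overlap. In KO it stood at 2065 and 2187 at 0 h, 2380 and 2369 at 2 h, 2233 and 2225 at 8 h, and 2139 and 2084 at 24 h. Its WT log2 difference of 8 h minus 2 h was -0.42 ± 0.11 (SE; adjusted p by limma 0.157, by DESeq2 0.0298).

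**Figure D2:**
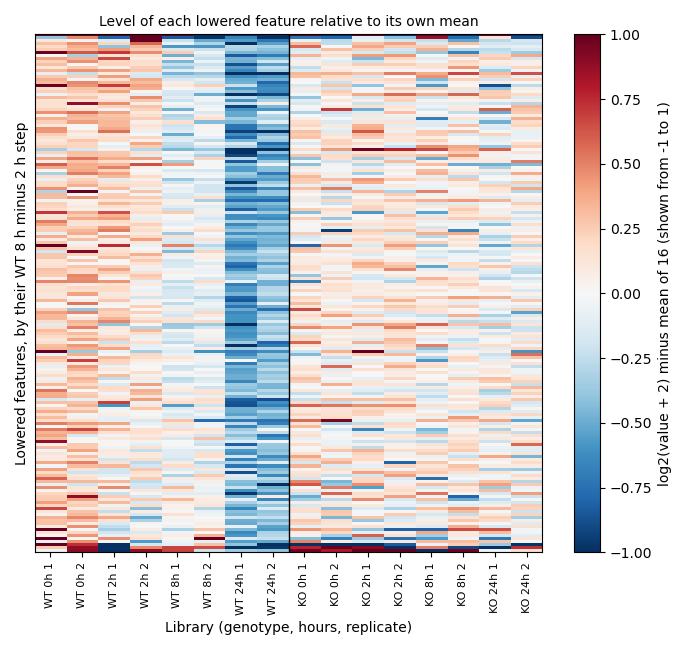
Each row is one of the 172 lowered features, ordered by its WT difference of 8 h minus 2 h, and each column one library; colour gives log2(value + 2) minus the feature's mean over the 16 libraries, with values beyond 1 in either direction drawn at the end of the scale. The WT libraries of 24 h are blue because the rule chose them so, those of 8 h are paler, and no KO time is blue throughout.

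In KO few members met the same criteria between 24 h and 0 h. Only 5 of the 172 had a KO mean at 24 h of at most 0.67 times that at 0 h with both libraries below both. The rule applied to KO picked 41 features in all, 0.608% of those with a mean of at least 100. The shared 5 make up 2.91% of the WT list and 12.2% of the KO list. With KO replicate 1 of either 0 h or 24 h left out, the count was 9 instead of 5.

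The members' median log2 difference in KO was 0.03 after 2 h, -0.01 after 8 h and -0.03 after 24 h, each against 0 h. The medians were 0.01, 0.00 and 0.01 for all features with a mean of at least 100. At 24 h, 104 members (60.5%) were below 0, against 48.8%. In 40 members (23.3%) both KO libraries of 24 h lay below both of 0 h, against 15.5% of those features, and in 13 members (7.56%) both lay above, against 18.2%. At 8 h the count of members below without overlap was 28 (16.3%), against 16.7%, and at 2 h 26 (15.1%), against 15.6%. The KO shares at 2 and 8 h were thus near those of all features, while that at 24 h was above it. Without KO 0 h replicate 2 the median at 24 h was -0.08.

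Called lower in KO by limma at an adjusted p under 0.05 were 0 of 172 members at each of the 3 times. Of all tested features 0% were called at 24 h, 0.00807% at 8 h and again 0% at 2 h. At an unadjusted p under 0.05, 12 members (6.98%) were lower at 24 h, where 3.16% of all tested features were. At 8 h there were 4 such members (2.33%), against 3.62%, and at 2 h also 4, against 2.15%. edgeR called 0 at each time, with 12, 4 and 4 at an unadjusted p under 0.05, and DESeq2 called 0, with 12, 3 and 3. Of all tested features, edgeR called 0 lower at each time, and DESeq2 called 1 at 24 h, 2 at 8 h and 1 at 2 h. The shares of all features at an unadjusted p were not counted for edgeR and DESeq2. A p that misses the threshold does not show that a KO level stayed the same. The 3 KO comparisons share the libraries of 0 h.

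Between 2 and 8 h, the step outside the rule's ratio in WT, the KO median was -0.03. For all features with a mean of at least 100 it was -0.02. In 48 members (27.9%) the KO libraries of 8 h lay below those of 2 h, against 18.7%. The difference of this step between genotypes, KO minus WT, had a median of 0.16 over the members. Limma called 0 members higher in this difference at an adjusted p under 0.05, where 0% of all tested features were called. At an unadjusted p under 0.05, 10 were higher (5.81%), against 1.53%. The step was thus not shown to differ between the genotypes for any single member.

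**Figure D3:**
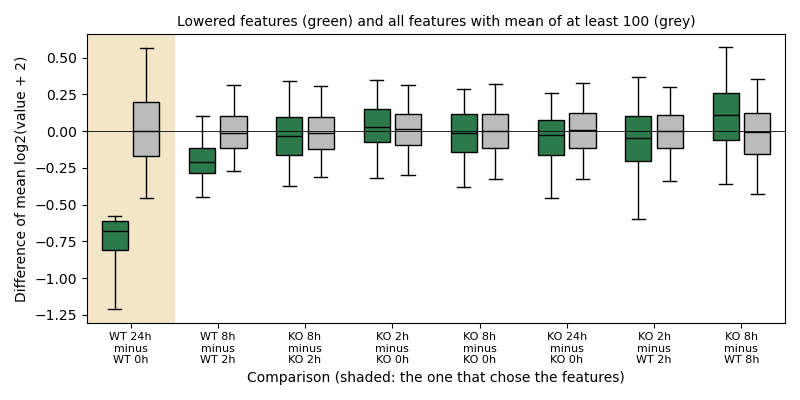
Differences of mean log2(value + 2) for the 172 lowered features (green) and for all features with a mean of at least 100 (grey), by comparison; boxes span the 25th to 75th percentile with the median as a line, and whiskers the 5th to 95th percentile over features. The shaded comparison chose the features; of the others, the medians of the lowered features lie farthest from 0 for WT 8 h minus 2 h (-0.21) and KO 8 h minus WT 8 h (0.11).

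The 24 h difference from 0 h was smaller in KO than in WT for 171 of the 172 members, a comparison that the choice of members in WT favours. It was at least 50% as large in KO as in WT, on the log2 scale, for 15 members. To read a WT difference in libraries outside the picking ratio, features were picked by the same level and ratio in 1 WT library of each time. They were then read in the remaining pair. The criterion that both values of 24 h lie below both of 0 h was not applied, so the picked sets are not the 172 members. How much of the members' own difference comes from their choice was not measured. The 4 ways of picking gave 230 to 349 features with medians of -0.78 to -0.70 in the libraries that picked them. In the remaining WT pair their medians were -0.38 to -0.29, against -0.01 to 0.01 for all features with a mean of at least 100. In KO at 24 h the medians of the picked features were -0.06 to -0.03, and in WT for 8 h minus 2 h -0.17 to -0.14. The WT difference was thus smaller in libraries that did not enter the picking ratio, and larger there than in KO for each of the 4 ways. The mean level was still taken over all 16 libraries, KO included. The WT values come from 1 pair of libraries, while the KO values average 2 libraries per time. The ways of picking share libraries and are not independent.

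**Figure D4:**
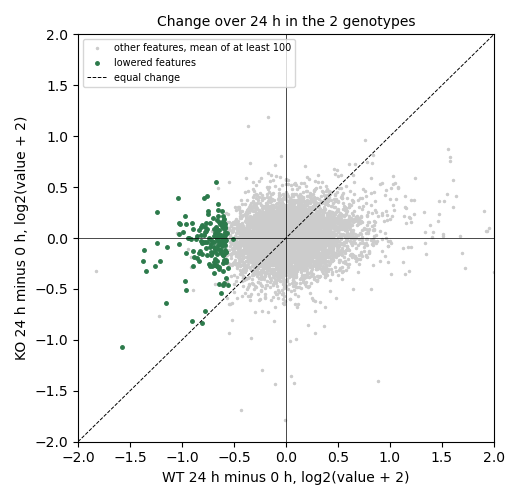
Each point is a feature with a mean of at least 100, placed by its log2 difference of 24 h minus 0 h in WT (horizontal) and in KO (vertical); green points are the lowered features, 2 of which lie outside the axes, and the dashed line marks equal change. The green points lie left by the rule and centre near 0 on the vertical axis, with a KO median of -0.03.

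Between genotypes the members were compared at 2 h and at 8 h, the times the rule used only for its mean level. At 2 h the members' median log2 difference, KO minus WT, was -0.04, against 0.00 for all features with a mean of at least 100. Both KO libraries lay above both WT libraries in 31 members (18%), against 16.3%, and below both in 41 (23.8%), against 18.4%. Limma called 0 members higher in KO, where 0.0242% of all tested features were called higher, and 0 lower, where 0.186% were. At an unadjusted p under 0.05, 9 members (5.23%) were higher, against 2.30%, and 15 (8.72%) were lower, against 3.41%. DESeq2 called 1 member lower, that of level rank 167, which had 4.19 and 1601 in the WT libraries of 2 h, and edgeR called 0. edgeR and DESeq2 each called 1 member higher, that of level rank 157. Its values at 2 h were 109 and 86.2 in WT and 208 and 181 in KO. Of all tested features, edgeR called 5 higher and 26 lower, and DESeq2 called 11 higher and 36 lower.

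At 8 h the median difference, KO minus WT, was 0.11, against -0.01. This comparison shares its WT libraries with the step from 2 to 8 h described above. Both KO libraries lay above both WT libraries in 70 members (40.7%), against 20.1% of the features with a mean of at least 100, and below both in 20 (11.6%), against 23.2%. Limma called 3 of 172 members higher in KO at an adjusted p under 0.05, where 0.161% of all tested features were called higher, and called 0 lower, where 0.629% were. At an unadjusted p under 0.05, 24 members (14.0%) were higher, against 4.06%, and 4 (2.33%) were lower, against 6.47%. The count of 3 did not hold without single libraries: it was 0 without WT 8 h replicate 2, and 1 without WT 8 h replicate 1 or KO 8 h replicate 2. The genotype medians at 0 h and 24 h, -0.16 and 0.47, use libraries of the rule and are given for completeness, as are the 141 members whose KO libraries of 24 h both lay above both WT libraries, where 22.9% of the features with a mean of at least 100 did.

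The member of level rank 49 had the smallest adjusted p at 8 h. In WT it had 481 and 559 at 0 h, 544 and 469 at 2 h, 437 and 354 at 8 h, and 244 and 265 at 24 h. In KO it had 494 and 569 at 0 h, 652 and 738 at 2 h, 653 and 744 at 8 h, and 591 and 573 at 24 h. The genotypes overlapped at 0 h, and from 2 h on every KO library lay above every WT library of its time. At 24 h the rule had already chosen low WT values. The log2 difference at 8 h came to 0.82 ± 0.14 (SE; limma adjusted p = 0.000733). It missed the threshold only without WT 8 h replicate 2 (limma adjusted p = 0.0761), of the 25 alternatives run for it.

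The member of level rank 114 had 160 and 144 in WT at 0 h, 180 and 154 at 2 h, 123 and 129 at 8 h, and 72.2 and 82.5 at 24 h. In KO its values were 214 and 218 at 0 h, 209 and 243 at 2 h, 220 and 272 at 8 h, and 212 and 266 at 24 h. Both KO libraries lay above both WT libraries at all 4 times, 0 h included, where 19.4% of the features with a mean of at least 100 did so. For 24 h the rule had already chosen low WT values. At 8 h the log2 difference came to 0.95 ± 0.19 (SE; limma adjusted p = 0.00564). The call ended when WT 8 h replicate 1, WT 8 h replicate 2 or KO 8 h replicate 2 was left out, with a limma adjusted p of up to 0.133.

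The member of level rank 20 had 1224 and 1505 in WT at 0 h, 1187 and 1337 at 2 h, 991 and 1100 at 8 h, and 860 and 874 at 24 h. In KO it had 1544 and 1593 at 0 h, 1742 and 1541 at 2 h, 1441 and 1561 at 8 h, and 1288 and 1245 at 24 h. KO lay above WT at each time without overlap, though for 24 h the rule had already chosen low WT values. In KO too both libraries of 24 h lay below both of 0 h, by a log2 difference of -0.31 ± 0.11 (SE; limma adjusted p = 0.585). Its difference between genotypes at 8 h was 0.52 ± 0.11 (SE; limma adjusted p = 0.0147). That call ended in 5 of the 25 alternatives: without any 1 of the 4 libraries of 8 h, where the limma adjusted p was 0.0595 to 0.312, and with no filter on low values, where it was 0.0621.

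**Figure D5:**
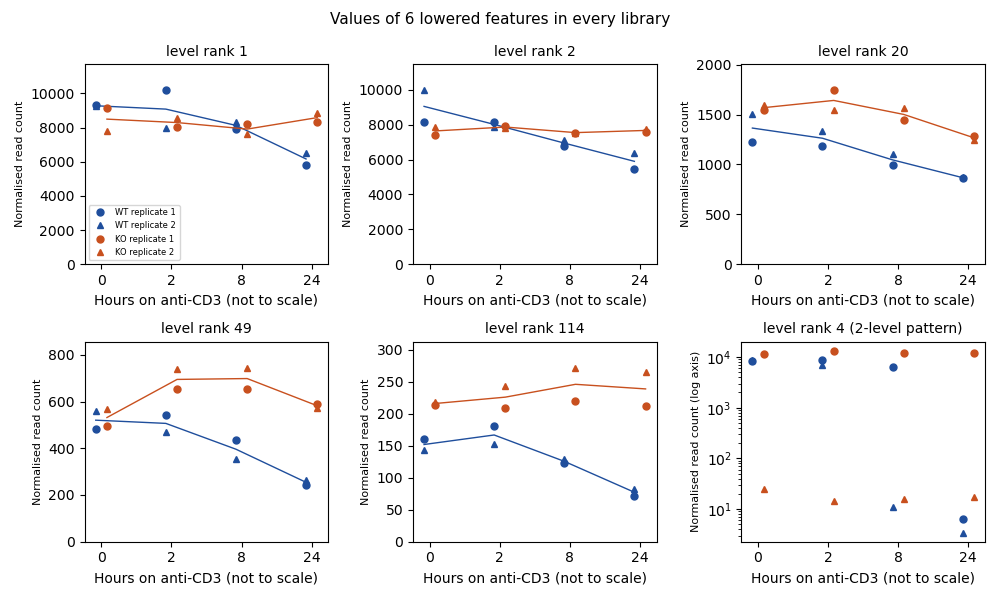
Normalised read counts of 6 lowered features by hours on anti-CD3; points are single libraries, lines join the means of the 2 libraries, and the last panel has a log axis and no line. At 8 h both KO points of level ranks 20, 49 and 114 lie above both WT points, while level rank 4 is split between libraries of at least 6243 and libraries of at most 25.3 in both genotypes.

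The feature of level rank 1, listed as ENSMUSG00000069793, had 9295 and 9262 in WT at 0 h, 10177 and 7987 at 2 h, 7925 and 8332 at 8 h, and 5837 and 6489 at 24 h. That is 9278 ± 23.4 at 0 h and 6163 ± 461 at 24 h (SD, n = 2), with 2 h and 8 h overlapping. In KO it had 9175 and 7816 at 0 h, 8047 and 8541 at 2 h, 8187 and 7638 at 8 h, and 8309 and 8860 at 24 h, and the KO groups of 0 h and 24 h overlapped. Its KO log2 difference at 24 h was 0.02 ± 0.10 (SE; limma adjusted p = 0.996).

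The WT means of level rank 2 were lower at each time than at the one before, going from 8135 and 9968 at 0 h to 8160 and 7877 at 2 h, 6771 and 7122 at 8 h, and 5442 and 6359 at 24 h. In KO all 8 of its libraries lay between 7437 and 7938. Level rank 3 had 6115 and 6239 in WT at 0 h, 6325 and 5261 at 2 h, 4903 and 5081 at 8 h, and 3713 and 4490 at 24 h. Its KO values were 6447 and 6175 at 0 h, 5750 and 5984 at 2 h, 6121 and 5589 at 8 h, and 6024 and 4924 at 24 h, so that here too both KO libraries of 24 h lay below both of 0 h, by a log2 difference of -0.21 ± 0.11 (SE; limma adjusted p = 0.756). All of the 10 most abundant members, with means of 2139 to 8242, were lower in WT at 8 h than at 2 h. In 8 of them the libraries did not overlap, where 17.1% of the features with a mean of at least 100 were lower without overlap. The 10 include the 2-level feature of level rank 4, whose WT libraries of 8 h were split and whose log2 difference was -4.76. In KO, 24 h means of these 10 were 86.7% to 104% of those at 0 h.

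The step from 2 to 8 h in WT was also read by abundance. The 86 members above the median level had a median log2 difference of -0.21 with 58 lower without overlap, and the 86 below it had -0.18 with 36, where 17.1% of all features with a mean of at least 100 were lower without overlap. At 8 h the genotype difference, KO minus WT, had medians of 0.12 and 0.11 in the same 2 groups, with KO above WT without overlap in 41 and 29, against 20.1% of all features with a mean of at least 100.

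The members with the smallest ratios were a mixed group. Among the 10 of them, WT 0 h replicate 1 held the highest of the 16 values in 5, against 31 of all 172 members. The most extreme was ratio rank 2 (level rank 69), with 5936 in that library and 0 to 12.9 in the other 15. Its 2 WT values of 24 h were 4.76 and 0, and 3 reads, the limit that a count of 0 allows, are worth 3.44 in the latter library. Ratio rank 7 (level rank 167) had 1601 in WT 2 h replicate 2 and 2.29 to 17.5 in all others, so its mean passed 100 through a library that the ratio did not use. Level rank 121 owed its mean to the same library, with 1431 there and 61.9 to 112 elsewhere. These 3 were the members with more than 50% of their summed value in 1 library.

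Ratio rank 3 (level rank 42) had 1781 and 402 in WT at 0 h against 324 and 339 at 24 h, and a second high value, 1980, in KO 2 h replicate 1. Ratio rank 5 (level rank 109) had 696 and 166 at 0 h against 148 and 139. Ratio rank 6 (level rank 111) had 466 and 183 against 104 and 119, and ratio rank 9 (level rank 168) had 240 and 95.4 against 70.5 and 64.2. In these 4 WT 0 h replicate 1 stood well above the second. Ratio rank 8 (level rank 152) had closer replicates, with 158 and 131 at 0 h, 172 and 111 at 2 h, 108 and 114 at 8 h, and 60.1 and 49.3 at 24 h in WT. In KO it lay between 106 and 180 at all times. Ratio rank 10 (level rank 134) went from 278 and 217 at 0 h to 229 and 196, 167 and 135, and 102 and 101 in WT, with each pair below the pair before except that 2 h overlapped 0 h. Its KO values were 129 and 149 at 0 h and 119 and 109 at 24 h, all below its WT values of 0 h.

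The 5 members that also met the criteria in KO were singled out after their values were seen, and none passed the test there. Level rank 77 had 600 and 415 in WT at 0 h and 261 and 191 at 24 h, and in KO 273 and 369 at 0 h and 164 and 252 at 24 h. Level rank 101 had 238 and 301 against 139 and 173 in WT, and 295 and 280 against 166 and 182 in KO. Its KO log2 difference was -0.72 ± 0.19 (SE; limma adjusted p = 0.320), the lowest adjusted p of any member in KO at 24 h. The other 3, of level ranks 106, 127 and 135, varied between libraries of one group. Level rank 106, which is also ratio rank 4, had 57.6 and 229 in WT at 2 h, and 309 and 64.0 in KO at 2 h.

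Membership itself depended on single libraries. With each of the 4 WT libraries of 0 h and 24 h left out in turn, 68 of the 172 members met the rule every time, 49 met it in 3 of the 4 cases and 55 in 2. The rule then gave 191 to 281 features, with the highest count without WT 24 h replicate 2, where 150 of the 172 members were among them.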

How the data were processed

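The submitters' processing notes name the build GRCm38.p6 and the tools STAR 2.6.0a, HTSeq and DESeq2. How reads were counted is not given in the sources used here. The deposited values are a normalised signal: whole reads divided by a library's own factor. By a check of the files, 1 read is worth 0.432 to 2.18 by library, and at this value 100% of the values above 0 were whole reads, to within 0.01 reads. Of 27803 rows, 1 duplicate was removed.

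One model with a mean per group was fitted with limma 3.58.1 in R 4.3.3 (trended, robust prior) to log2(value + 2) over the 12391 features that reached 10 in 2 or more libraries. P-values were adjusted by Benjamini-Hochberg over all of them, with calls at 0.05. edgeR 4.0.16 (quasi-likelihood) and DESeq2 1.42.0 on recovered reads were alternatives. The fit was run on simulated reads with planted changes of 2-fold or more, so smaller changes were not covered. Python 3.11.15 served counts and plots.

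The members, lists and tests were chosen with earlier results of these data known. Members were named by rank: level ranks 1 to 10, ratio ranks 1 to 10, and members called in a test.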

Additional observations from a re-analysis of the deposited data

How the results depend on the processing

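Over 11 results, 214 of 242 alternatives left the value within 1.5 times its count or within its spread, and 28 did not. Part of the 214 is automatic. A library left out of another group, or the replicate block, cannot change a median difference between 2 groups. The counts of members called lower in KO were 0 in every alternative. With a ratio of at most 0.5 the rule gave 18 features, 0 of them meeting it in KO, with a KO median at 24 h of -0.070 and 1 called higher in KO at 8 h. With 0.8 it gave 689, 45 in KO and a held-out median of -0.25, against -0.35. A mean of at least 50 gave 17 in KO and a held-out median of -0.27, and a mean of at least 200 gave 103 members, 2 in KO and -0.43. DESeq2 called 3 members lower in WT from 2 to 8 h, where it called 6 of all tested features lower. It called 1 and 5 members higher in KO at 2 and 8 h, where it called 11 and 35 of all tested features higher. edgeR called 1 member higher in KO at 2 h, where it called 5 of all tested features higher. The fit without the 4 WT libraries of 0 h and 24 h called 6 members at 8 h, against 3. Its calls over all features were not counted.

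With single libraries left out, the rule gave 191 to 281 features and 5 to 9 members in KO. The calls ranged from 0 to 2 in WT from 2 to 8 h, where the 2 were level ranks 121 and 167 without WT 2 h replicate 1. Calls higher in KO ranged from 0 to 1 at 2 h, the 1 found without WT 2 h replicate 2, and from 0 to 4 at 8 h. At 2 h without WT 2 h replicate 1, level ranks 121 and 167 were called lower in KO. The KO median at 24 h was -0.077 to -0.027 and the WT median from 2 to 8 h -0.25 to -0.17. In the fits with a library left out, calls over all features were not counted, so the member calls have no share beside them. A group left with 1 library is assumed to vary like the others. The causes were not tested.

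Leaving out the 4 members led by 1 library or by the 2-level pattern, an alternative chosen after seeing the data, changed no count of calls. It could not do so, because the main fit had called none of the 4. Groups share only replicate numbers: over 28 pairs of groups, deviations correlated at -0.18 to 0.23, over 0.1 in 4. With the replicate block, 0 members were called in each KO comparison, in WT from 2 to 8 h and higher in KO at 2 h, and 3 higher in KO at 8 h, as without it. The medians with the block were -0.03 for KO at 24 h and -0.21 for WT from 2 to 8 h. The block cannot change them, because each group holds 1 library of each replicate number. Depth limits low members most, since 1 read is worth up to 2.18. No test of outlying libraries was made in groups of 2.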
